A study of Mus musculus with 7 samples.

Results

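The 8 genes described here, Klf2, Klf3, Klf6, S1pr1, S1pr4, S1pr5, Ccr7 and Cd69, belong to the machinery by which T cells leave tissue or enter lymph nodes. They were chosen by gene symbol and are 8 of the 53656 gene rows in the deposited files; all 8 were among the 15896 genes that passed the filter on low counts. RNA-seq libraries were made from 7 samples of OT1 cells, which are CD8 T cells with a transgenic receptor for an ovalbumin peptide, sorted by CD8 and CD45.1 from B16-OVA-GP61 tumours in mice. The tumour is a B16 melanoma line that, by its name, carries ovalbumin and the GP61 epitope. The tumours of 4 libraries had no SMARTA cells, which are GP61-specific CD4 T cells with a transgenic receptor, and those of 3 libraries did. OT1 cells and the tumour line are common to both groups, and the labels give no age, strain, cell number or time of harvest. They also do not say whether each library came from a separate mouse, so the p-values cover only how these samples differ among themselves, which may be technical.

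Sphingosine 1-phosphate, S1P, is abundant in blood and lymph and scarce inside tissue, and lymphocytes follow this gradient out of organs through the receptor S1PR1. CD69 is a membrane protein that binds S1PR1 and removes it from the cell surface, which keeps activated T cells in place. KLF2 is a transcription factor of resting T cells that drives S1pr1, while CCR7 leads cells towards the chemokines of lymphatic vessels and lymph nodes. Tissue-resident CD8 T cells are known for low Klf2 and S1pr1 and for CD69 on their surface.

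The promoters of 5 of the 8 genes (Klf2, Klf3, Klf6, S1pr4 and S1pr5) were matched by symbol in the RefSeq table of GRCm38.p6; those of S1pr1, Ccr7 and Cd69 were not. Shown here are the 250 bases before the start site of Klf2, the regulator of the set, and of S1pr4, the S1P receptor with the next highest level after S1pr1. Klf2 lies on the plus strand and its window is chr8:72318812-72319061; S1pr4 lies on the minus strand and its window is chr10:81500138-81500387. Capitals mark matches, on either strand, to the KLF core CACCC and, in Klf2, to the MEF2 core TAAATTTA. Start sites here are those of RefSeq. In the annotation used for counting Klf2 starts at 72319033, so the end of its window, with the KLF core, lies within the counted gene.
Klf2: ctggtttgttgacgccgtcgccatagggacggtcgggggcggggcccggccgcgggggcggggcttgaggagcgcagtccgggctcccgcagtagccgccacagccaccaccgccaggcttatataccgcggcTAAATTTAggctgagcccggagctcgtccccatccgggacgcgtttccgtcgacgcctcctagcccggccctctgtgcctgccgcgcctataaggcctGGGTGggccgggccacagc
S1pr4: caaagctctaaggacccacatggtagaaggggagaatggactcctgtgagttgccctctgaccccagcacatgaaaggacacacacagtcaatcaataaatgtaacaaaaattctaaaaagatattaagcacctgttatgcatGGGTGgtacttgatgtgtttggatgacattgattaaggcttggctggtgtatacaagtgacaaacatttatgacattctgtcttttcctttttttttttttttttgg
The KLF core occurred in 52% of the 32851 promoter windows of this length, and the MEF2 core in 165 of them (0.502%). The Klf2 window has a G and C content of 71.2% and the S1pr4 window one of 38.8%. The FOXO core GTAAACA (3.17% of all windows) and the interferon response core, a GAAA repeat with 2 free bases between its units (2.98%), had no match in the windows of the 5 members. These matches describe the letters of the windows only, and the motifs do not overlap each other in Klf2.

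Libraries held 38092722 to 49438357 counts, and levels are given as counts scaled to a common library size (CPM). In bulk samples fewer cells of a type and less RNA per cell cannot be told apart. CD8 T cell markers were high in all libraries: Lck averaged 2201 CPM without and 2979 CPM with SMARTA and Cd8a ranged from 1028 to 1948 CPM, while Cd4 was at 0.650 to 8.48 CPM. Replicate 1 with SMARTA stood apart on the first principal component and held 4829 CPM of 8 erythroid markers, led by Hbb-bs, against 10.3 to 223 CPM in the 6 others. Results are therefore also given without this library.

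S1pr1 transcript was higher in OT1 cells where SMARTA cells were in the tumour, and S1pr1 was the single member to pass the test. Ccr7 stood lower in each library with SMARTA than in any without, and Cd69, Klf6 and S1pr4 had higher means with SMARTA, but none of these 4 passed. Klf2, Klf3 and S1pr5 were scarce in both groups. Genes were called at a Benjamini-Hochberg adjusted p under 0.05 in edgeR's quasi-likelihood test over all genes tested; 1 of the 8 members was called, against 3.15% of all genes (1.52% higher and 1.63% lower with SMARTA). At an unadjusted p under 0.05 there were 5 of 8 members, against 18.6% of all genes. The groups did not overlap in 2 of 8 members, against 19.2% of all genes: S1pr1 was higher (8.73% of all genes) and Ccr7 lower (10.5%). The 8 genes were picked with earlier results of these data known, so these counts are a description. In simulated counts edgeR called only 12% of the genes set to differ 2-fold, so members that did not pass may still differ. Those genes were drawn from genes above 5 CPM on average, so the rate does not cover Klf2 and S1pr5.

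**Figure D1:**
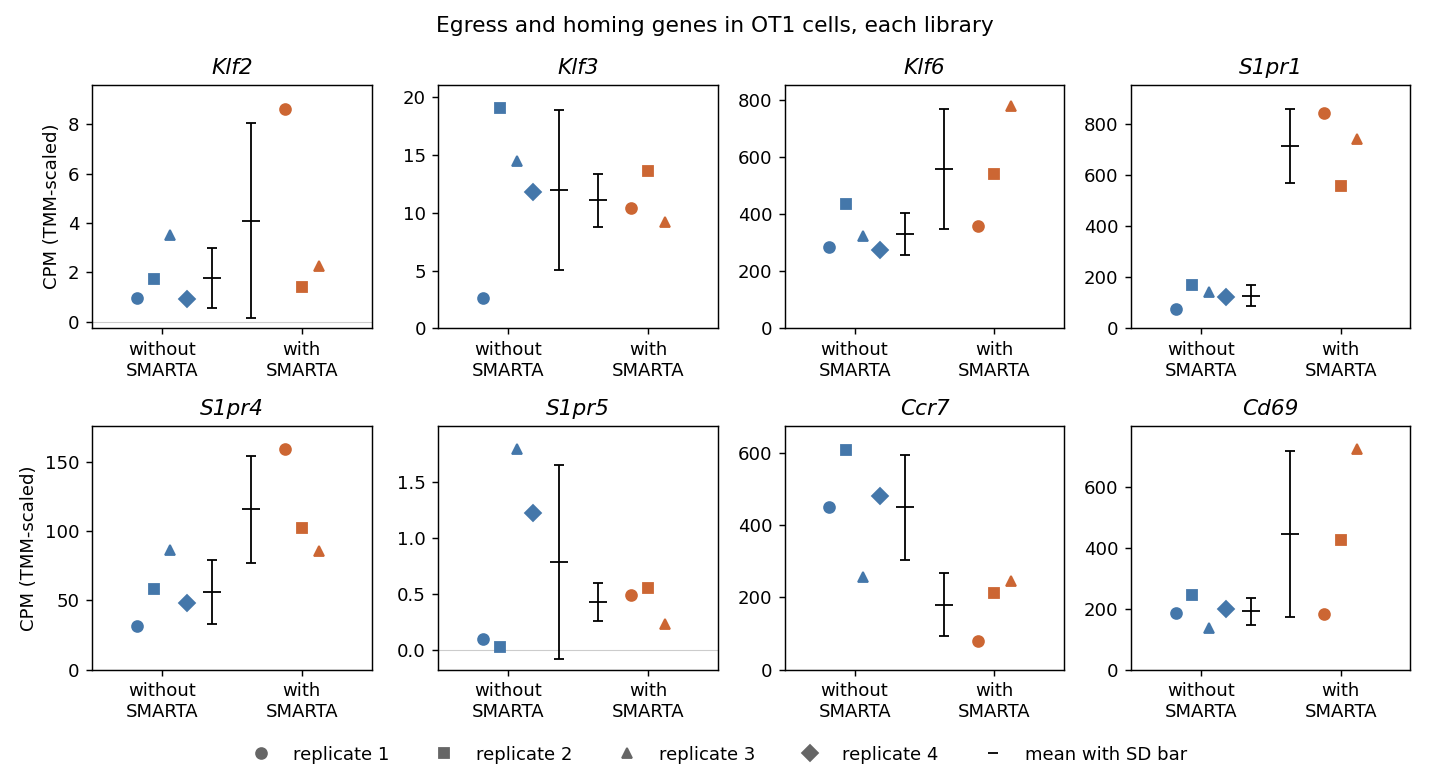
Level of each of the 8 genes in each of the 7 libraries, in counts scaled to a common library size by TMM (CPM, vertical axis); symbols are replicates and the black bars are the mean with the SD (n = 4 without and 3 with SMARTA). S1pr1 lies between 74.2 and 172 CPM without and between 556 and 844 CPM with SMARTA, and Ccr7 is lower in all 3 libraries with SMARTA.

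S1pr1 (chr3:115710433-115715072, minus strand, GRCm38, protein-coding; counts are over its exons), the receptor for exit along S1P, had 74.2, 172, 141 and 123 CPM in replicates 1 to 4 without SMARTA. With SMARTA replicates 1, 2 and 3 had 844, 556 and 744 CPM. The lowest library with SMARTA was thus above the highest without. The fold change was 5.60 (log2 fold change 2.49 ± 0.29, SE, 95% interval 1.82 to 3.15; edgeR adjusted p = 0.0119), and S1pr1 ranked 23 by p among all genes tested. When each library was left out in turn its log2 fold change stayed between 2.25 and 2.66, and it was called in 6 of the 7 fits; without replicate 4 lacking SMARTA the edgeR adjusted p was 0.0596.

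S1pr4 (chr10:81497747-81500132, minus strand), an S1P receptor largely restricted to blood and lymphoid cells, was at 31.3, 58.1, 86.5 and 48.2 CPM without SMARTA. It was at 159.7, 102 and 85.6 CPM with SMARTA. The groups overlap by a small margin, since replicate 3 lacking SMARTA was above replicate 3 with SMARTA. The log2 fold change of 1.05 ± 0.36 (SE, 95% interval 0.24 to 1.86) did not pass (edgeR adjusted p = 0.16). DESeq2 on the same counts called it (DESeq2 adjusted p = 0.0488).

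S1pr5 (chr9:21242912-21248443, minus strand), which guides natural killer cells and some effector CD8 T cells, was scarce. It was near the limit of detection in replicates 1 and 2 lacking SMARTA. The 7 libraries held 5, 1, 88 and 58 counts without and 23, 23 and 8 counts with SMARTA, or 0.106 CPM (0.0343 to 0.246) to 1.81 CPM (1.45 to 2.23) of the library total in replicates 1 and 3 lacking SMARTA. These are exact 95% Clopper-Pearson intervals, which cover counting error only. The difference between groups was smaller than that among libraries without SMARTA (log2 fold change −0.87 ± 1.23, SE, 95% interval −3.67 to 1.93; edgeR adjusted p = 0.773), and its sign changes under limma-voom. In the files an exon of S1pr5 overlaps an exon of an antisense gene model with at most 6 counts, and reads in the shared part were not counted.

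Of the transcripts of the S1P receptor family, S1pr1 was the larger part in both groups. Per exon length, with each library scaled to the same total (TPM), it made up 60.7, 68.1, 51.9 and 62.4% of the summed level of S1pr1 to S1pr5 in replicates 1 to 4 without SMARTA. The shares were 78.5, 78.3 and 85.4% with SMARTA, each above all 4 of the other group. S1pr4 made up 29.4 to 40.7% without and 12.6 to 18.9% with SMARTA. These shares do not depend on library scaling, and as parts of 1 sum they move against each other; differences between receptors were not tested. S1pr2, a receptor that restrains migration, was at 10.4 ± 4.52 TPM without and 20.5 ± 4.52 TPM with SMARTA (mean ± SD; a log2 difference of 1.07, edgeR adjusted p = 0.148). S1pr3 was below 1 TPM on average in both groups.

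**Figure D2:**
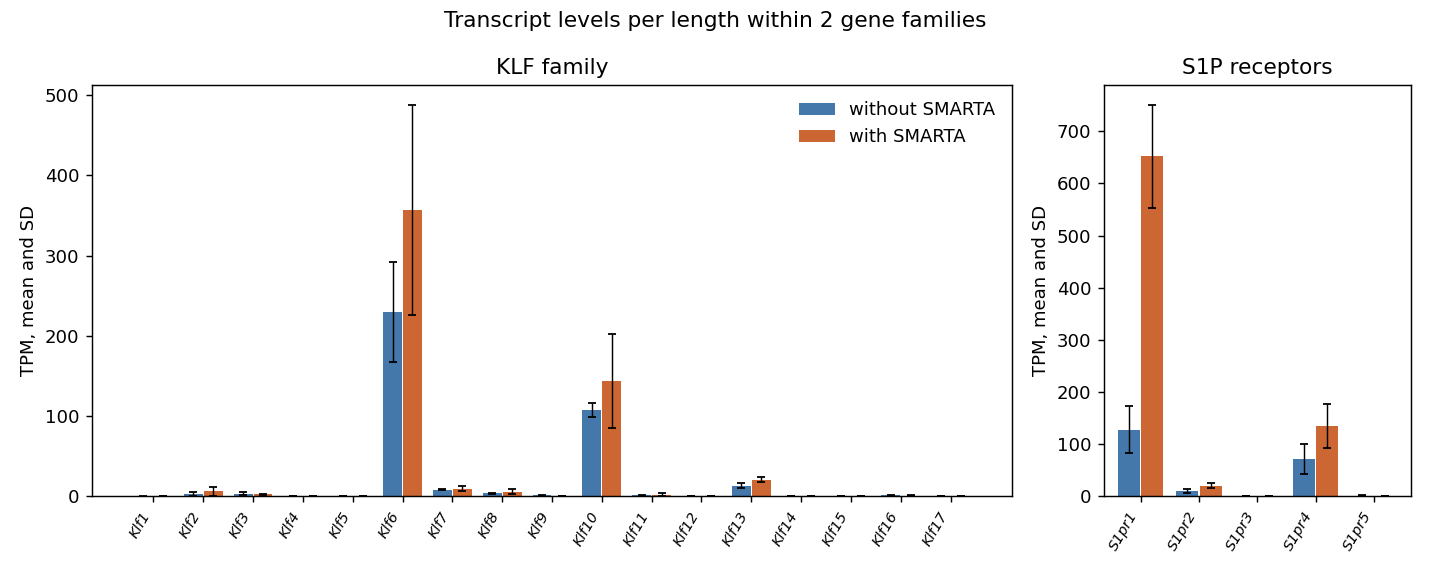
Mean level per exon length (TPM, bars from 0, error bars SD, n = 4 without and 3 with SMARTA) of the 17 KLF genes and the 5 S1P receptors. Klf6 and Klf10 lead the KLF family, and S1pr1 rises from 128 to 652 TPM beside S1pr4 at 71.3 and 135 TPM.

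Ccr7 (chr11:99144196-99155077, minus strand), the lymph node homing receptor, was at 449, 609, 257 and 480.4 CPM without SMARTA and at 80.4, 211 and 245 CPM with SMARTA. The 3 libraries with SMARTA were all below the 4 others, though replicate 3 with SMARTA and replicate 3 lacking it were close. The log2 fold change was −1.33 ± 0.42 (SE, 95% interval −2.27 to −0.38), a level 2.51-fold lower, and did not pass (edgeR adjusted p = 0.131). It was called by DESeq2 (DESeq2 adjusted p = 0.023), and in none of the 7 fits with 1 library left out, where its log2 fold change ranged from −1.63 to −1.001.

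S1pr1 and Ccr7 therefore stood in different proportion in the 2 groups. The ratio of S1pr1 to Ccr7 counts was 0.165, 0.282, 0.547 and 0.257 in replicates 1 to 4 without SMARTA. It was 10.5, 2.63 and 3.03 with SMARTA. Each library with SMARTA held more S1pr1 than Ccr7 counts, and each without held fewer.

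Cd69 (chr6:129267325-129275436, minus strand), the antagonist of surface S1PR1, was at 186, 244, 136 and 200.02 CPM without SMARTA and at 182, 427 and 724 CPM with SMARTA. Replicate 1 with SMARTA lay within the range of the group without it, and the other two lay above that range. The log2 fold change was 1.21 ± 0.41 (SE, 95% interval 0.28 to 2.14; edgeR adjusted p = 0.157). Without replicate 1 with SMARTA it was 1.56 (edgeR adjusted p = 0.0235), the only fit of the 7 with 1 library left out that called it, and without replicate 3 with SMARTA it was 0.65 (edgeR adjusted p = 0.458). DESeq2 called it with all libraries (DESeq2 adjusted p = 0.0488).

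S1pr1 and Cd69 were both high in replicates 2 and 3 with SMARTA. The ratio of S1pr1 to Cd69 counts was 0.399, 0.703, 1.03 and 0.617 without SMARTA and 4.65, 1.30 and 1.03 with SMARTA. The ratios of the 2 groups overlap, since replicate 3 lacking SMARTA and replicate 3 with SMARTA had nearly the same ratio. Replicate 1 with SMARTA had the highest S1pr1 and the lowest Cd69 of its group.

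**Figure D3:**
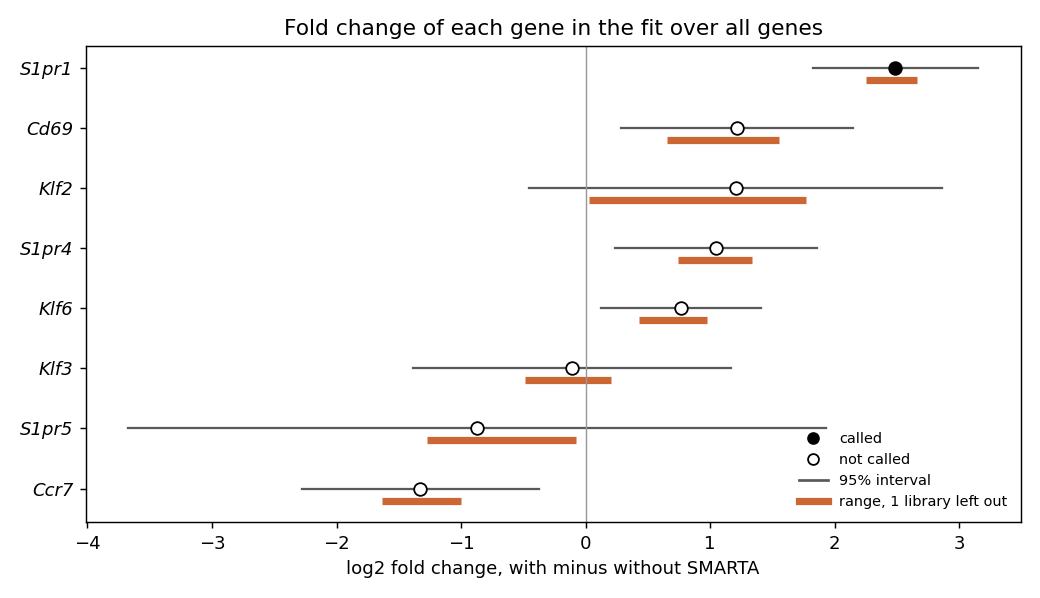
Log2 fold change of each gene, with minus without SMARTA (horizontal axis), from the fit over all genes; filled circles are called genes, open circles genes that were not called, grey lines 95% intervals and orange bars the range over the 7 fits with 1 library left out. S1pr1 at 2.49 stands apart from 0 in each fit, the range of Klf2 reaches down to 0.03 and that of Klf3 crosses 0.

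Klf6 (chr13:5861482-5870394, plus strand), a zinc finger factor induced early by many stimuli, was the main KLF transcript of these cells. It was at 284, 436, 326 and 274 CPM without and at 358, 543 and 779 CPM with SMARTA. Replicates 2 and 3 with SMARTA were above the whole group without it, and replicate 1 was not. The log2 fold change of 0.76 ± 0.28 (SE, 95% interval 0.12 to 1.41) did not pass (edgeR adjusted p = 0.194). Klf6 made up 56.5 to 69.2% of the summed TPM of the 17 KLF genes without SMARTA, and, with SMARTA, 45.096% in replicate 1, 70.9% in replicate 2 and 75.4% in replicate 3.

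Klf2 (chr8:72319033-72321656, plus strand) was scarce: 0.952, 1.72, 3.52 and 0.928 CPM without SMARTA and 8.63, 1.40 and 2.26 CPM with SMARTA, from 44 to 407 counts. Apart from replicate 1 with SMARTA the libraries of both groups lay in 1 range. The log2 fold change was 1.20 ± 0.73 (SE, 95% interval −0.46 to 2.87; edgeR adjusted p = 0.44) with all libraries and 0.03 (edgeR adjusted p = 0.986) without that replicate. S1pr1 counts were 40.1 to 133 times the Klf2 counts without SMARTA. With SMARTA they were 97.9 times in replicate 1, 398 times in replicate 2 and 329 times in replicate 3. Replicates 2 and 3 with SMARTA thus had high S1pr1 at a Klf2 level within the range of the group without SMARTA. Whether Klf2 has a part in the S1pr1 level was not tested.

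Klf3 (chr5:64803388-64832901, plus strand), a repressor that binds the same kind of site as KLF2, was at 2.59, 19.1, 14.5 and 11.8 CPM without and 10.5, 13.6 and 9.17 CPM with SMARTA. The groups overlapped (log2 fold change −0.11 ± 0.56, SE, 95% interval −1.39 to 1.16; edgeR adjusted p = 0.946), and the sign depends on the library left out and on the tool. An exon of Klf3 also overlaps an antisense gene model with at most 2 counts.

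Per exon length, the order of the 8 genes differed between the groups. Without SMARTA it was Ccr7 (694 ± 249 TPM, mean ± SD), Klf6 (229 ± 62.0), S1pr1 (128 ± 45.4), Cd69 (89.9 ± 24.4), S1pr4 (71.3 ± 29.0), Klf3 (3.28 ± 1.98), Klf2 (2.91 ± 1.94) and S1pr5 (0.936 ± 1.03). With SMARTA it was S1pr1 (652 ± 99.5 TPM), Klf6 (357 ± 131), Ccr7 (255 ± 127), Cd69 (191 ± 113), S1pr4 (135 ± 41.9), Klf2 (6.06 ± 5.67), Klf3 (2.78 ± 0.751) and S1pr5 (0.482 ± 0.208). In the first order S1pr1, Cd69 and S1pr4 overlapped in turn, as did Klf3, Klf2 and S1pr5; in the second, Klf6, Ccr7, Cd69 and S1pr4 overlapped in turn, as did Klf2 and Klf3. Lengths are those of all annotated exons joined, so the level of a gene with long, little-used exons, such as Klf3 at 11243 bases, is understated.

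For the 5 members above 30 CPM the counting error was at most 5.02% of the value (from the middle of the exact 95% interval to its end), far below the spread between libraries. Replicate 1 with SMARTA, which held the erythroid markers, also had the highest sum of 8 B cell markers (64.4 CPM, against 7.81 to 40.9 CPM without SMARTA and 12.2 to 14.4 CPM in the other two with SMARTA), with Cd79b highest of the list. B cells carry Klf2, S1pr1 and Ccr7. This replicate had the highest Klf2, the highest S1pr1 and the lowest Ccr7 of all libraries. Without this library the log2 fold change of S1pr1 was 2.33 (edgeR adjusted p = 0.00911), that of Ccr7 −1.001 (edgeR adjusted p = 0.132) and that of S1pr4 0.74 (edgeR adjusted p = 0.274). Klf6 was then at 0.98 (edgeR adjusted p = 0.0547), Klf3 at −0.08 and S1pr5 at −0.96 (edgeR adjusted p = 0.964 and 0.776). The part of B cells and of erythroid cells in the Klf2, S1pr1 and Ccr7 values was not tested.

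Endothelial cells also carry S1pr1 and Klf2. Their 8 markers summed to 86.5 to 118 CPM without and 138 to 187 CPM with SMARTA, nearly all of it Pecam1, which T cells express as well; the other 7 summed to at most 6.94 CPM, and Cdh5 was at 1.53 CPM or less. Dendritic cells carry Ccr7; their 8 markers summed to 60.6 to 222 CPM without and 146 to 434 CPM with SMARTA, led by Itgax, which activated CD8 T cells also express. The other 7 summed to at most 36.5 CPM. Of these Xcr1 was at 12.2 to 31.4 CPM, and Zbtb46 and Siglech reached 6.97 and 5.92 CPM. Fscn1 was at 0.721 CPM or less and Clec9a at 0.594 CPM or less. For S1pr5, the 7 natural killer cell markers summed to 35.5 to 96.6 CPM without and 17.4 to 112 CPM with SMARTA, led by Klrb1c. Fcer1g was at 10.03 to 19.8 CPM without and 3.04 to 11.9 CPM with SMARTA. Ncr1 was at 0 to 0.790 CPM without SMARTA and had no count with it, and Klra4 had none in any library. The 9 macrophage and monocyte markers, led by Lyz2, summed to 82.2 to 183 and 33.8 to 197 CPM, the 8 neutrophil markers, led by S100a9, to 3.19 to 41.3 and 0.773 to 2.23 CPM, and the 8 melanoma markers, led by Pmel, to 7.19 to 68.4 and 6.94 to 9.26 CPM. The 7 markers of CD4 T cells summed to 147 to 228 and 132 to 173 CPM. They were led by Ccr8 without and Cd40lg with SMARTA, both of which CD8 T cells can also express. With Ccr8 left out the sums were 40.1 to 96.9 CPM in the group lacking SMARTA and 124 to 148 CPM in the other. Cd4 itself overlapped between the groups. Ccr8 was called lower and Ccr4 higher, and no marker of the other 9 lists was called. Whether CD4 T cells have a part in the levels of the members was not tested.

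Type I interferon is known to induce CD69 and, through it, to hold lymphocytes in lymph nodes. Of 15 interferon-stimulated genes 13 were called higher and none lower, with a median log2 fold change of 2.29 beside 0.00 over all genes tested; this list was chosen with the interferon result of these data known. The count rests on single libraries: leaving out replicate 1 or 4 of the group lacking SMARTA gave 4 calls, as did leaving out replicate 2 of the other group. Leaving out its replicate 3 gave 6 calls, and the 3 remaining fits gave 10 to 14, all higher. Irf7, Oas3 and Isg15 rose by 1.90, 2.08 and 2.18 log2 units (edgeR adjusted p = 0.0082, 0.00825 and 0.00957), and these 3 were called in all 7 fits with 1 library left out. The summed CPM of the 15 genes was 996 to 1179 without SMARTA. It was 2470 in replicate 1, 4440 in replicate 2 and 5089 in replicate 3 of the group with SMARTA. Cd69 (182, 427 and 724 CPM) and Klf6 (358, 543 and 779 CPM) follow the same order of these 3 libraries. So do Ccr7, though lower with SMARTA (80.4, 211 and 245 CPM), and Ccr2 (628, 1696 and 2409 CPM). S1pr1 (844, 556 and 744 CPM) does not, and S1pr4 (159.7, 102 and 85.6 CPM) has the reverse order. The order is thus not particular to Cd69 and Klf6. Whether the interferon response has a part in the Cd69 level was not tested.

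**Figure D4:**
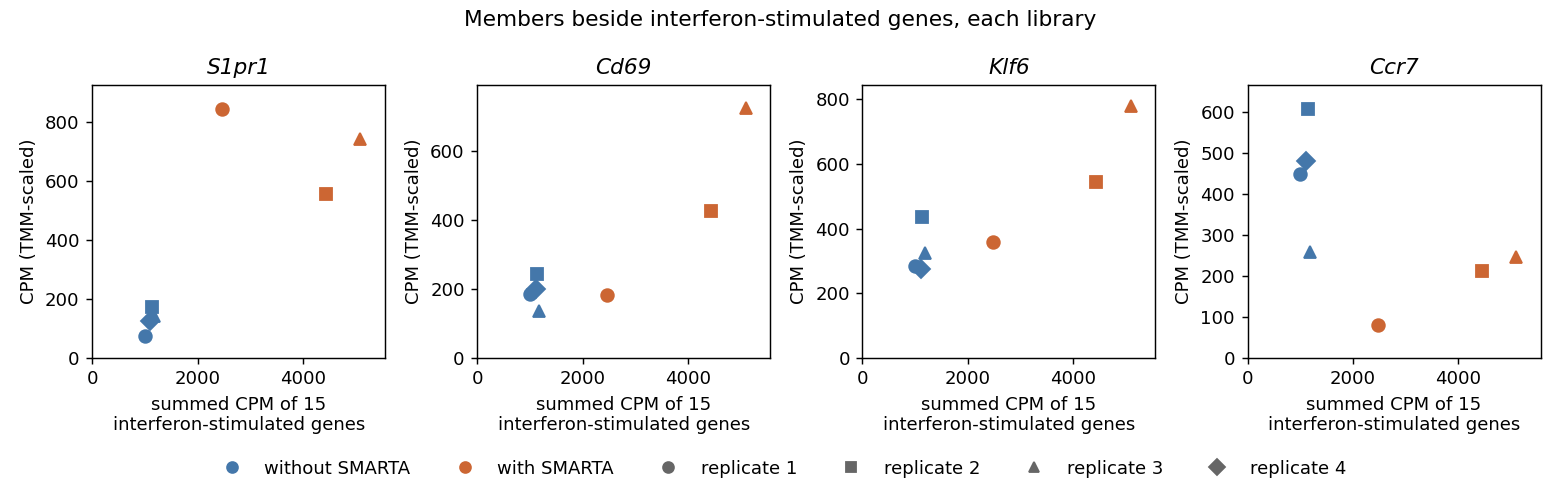
Level of S1pr1, Cd69, Klf6 and Ccr7 (TMM-scaled CPM, vertical axis) beside the summed CPM of 15 interferon-stimulated genes (horizontal axis) in each of the 7 libraries, with groups by colour and replicates by symbol. Replicate 1 with SMARTA, at 2470 CPM of interferon-stimulated genes, has 844 CPM of S1pr1 but 182 CPM of Cd69, near the libraries without SMARTA.

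Other genes of the pathways around the 8 members were looked at by list. Over all genes tested 3.15% were called and 18.6% had an unadjusted p under 0.05. Among 14 other KLF genes 9 were tested, 1 was lower and none was higher (median log2 fold change 0.54). The gene that fell was Klf9, a factor of hormone responses and quiescence, from 1.01, 1.37, 0.833 and 1.71 CPM to 0.0212, 0.0964 and 0.118 CPM (edgeR adjusted p = 0.0406); these are low levels, and it was called in 1 of the 7 fits with 1 library left out. Klf10, a target of TGF-beta signalling, was the next most abundant KLF after Klf6, at 108 ± 8.61 TPM without and 143 ± 58.5 TPM with SMARTA (edgeR adjusted p = 0.352). Klf13, which takes part in T cell chemokine expression, averaged 33.3 ± 5.51 CPM without and 55.6 ± 11.2 CPM in the presence of SMARTA, with no overlap between the groups (a log2 difference of 0.74, edgeR adjusted p = 0.129).

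Of 16 genes of S1P synthesis, breakdown and transport and of the receptors S1pr2 and S1pr3, 15 were tested and none was called by edgeR (median 0.12). At an unadjusted p under 0.05 there were 2, S1pr2 and Spns1, against 18.6% of all genes. DESeq2 called 2 and limma-voom none. Spns1, a lysosomal lipid transporter, averaged 51.1 ± 10.5 CPM without SMARTA and 79.9 ± 5.52 CPM beside them (edgeR adjusted p = 0.149). Of 17 genes that carry or end the signal of S1P receptors, 1 was called higher and none lower (median 0.24). That gene was Gna13, the G protein subunit through which S1PR2 restrains migration, at 117, 154, 118 and 103 CPM without and 192, 285 and 315 CPM with SMARTA (a log2 fold change of 1.10 ± 0.23, SE; edgeR adjusted p = 0.0424). It was called in 2 of the 7 fits with 1 library left out.

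Of 15 tested genes of homing and entry, 3 were higher and none lower (median 0.62). Cxcr3, a receptor for interferon-induced chemokines in inflamed tissue, rose from 353, 404, 598 and 404 CPM to 1791, 998 and 1077 CPM (a log2 fold change of 1.55 ± 0.27, SE; edgeR adjusted p = 0.0263). Ccr2, a receptor for monocyte-attracting chemokines, rose from 281, 547, 349 and 365 CPM to 628, 1696 and 2409 CPM (2.03 ± 0.42; edgeR adjusted p = 0.0424). Selplg, the ligand of P-selectin, rose from 1840.2 ± 268 to 3497 ± 564 CPM (0.93 ± 0.18; edgeR adjusted p = 0.0394). In the 7 fits with 1 library left out Cxcr3 was called in 2, and Ccr2 and Selplg in 1 each. The 3 genes that rose in this list guide cells to inflamed sites, whereas the lymph node receptor Ccr7 did not pass.

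No gene of the 16 that act upstream of Klf2 was called by edgeR with all libraries and the stated settings (median 0.08). An unadjusted p under 0.05 was found for 5, against 18.6% of all genes. The number called sits at the threshold: edgeR called 1 with relative log expression factors, without a filter or without robust estimation, 2 with upper-quartile factors or without replicate 1 with SMARTA, and 3 with a filter at a CPM of 5, while DESeq2 called 4 and limma-voom 1. Closest were Pik3cd, the catalytic PI3 kinase subunit of leukocytes, at 748 ± 119 CPM without and 1269 ± 28.3 CPM with SMARTA (a log2 difference of 0.76, edgeR adjusted p = 0.0507), and Rptor, a subunit of mTORC1, at 40.9 ± 13.5 and 123 ± 52.3 CPM (1.59, edgeR adjusted p = 0.0539). Foxo1, the factor that drives Klf2 and Ccr7 in resting T cells, averaged 22.05 ± 2.63 CPM without SMARTA and 36.8 ± 15.7 CPM beside them (0.74 log2, edgeR adjusted p = 0.24).

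Klf6 and Cd69 also respond to T cell receptor signals and to the handling of tissue. Of 21 immediate early and stress genes 1 was lower and none higher by edgeR, with a median log2 fold change of −0.43; DESeq2 called 7, of which 5 were lower and 2 higher. Nr4a2, a nuclear receptor induced through the T cell receptor, fell from 39.5, 48.7, 139.9 and 59.2 CPM to 6.87, 10.4 and 14.4 CPM (a log2 fold change of −2.76 ± 0.51, SE; edgeR adjusted p = 0.0339); it was called in 3 of the 7 fits with 1 library left out. The summed CPM of the list was 1144 to 2930.04 without and 1323 to 1905 with SMARTA, and the groups overlapped. Egr2, Nr4a1 and Nr4a3, which the T cell receptor also induces, were lower in each library with SMARTA than in any without, as were 10.5% of all genes. They did not pass (log2 fold changes of −2.05, −1.87 and −2.05, edgeR adjusted p = 0.0502, 0.0746 and 0.0782). Egr3 (−1.27), Fos (−0.66), Egr1 (−0.43), Junb (0.58) and Ier2 (0.55) overlapped between the groups. Over the whole list 10 genes had a positive and 11 a negative log2 fold change. The heat shock genes Hspa1a (17.7 ± 16.6 and 47.02 ± 18.8 CPM) and Hspa1b (22.9 ± 18.6 and 66.9 ± 33.6 CPM) had higher means with SMARTA, overlapped between the groups and did not pass (edgeR adjusted p = 0.273 and 0.214). Dnajb1, another heat shock gene (115 ± 42.1 and 223 ± 45.9 CPM), was higher with no overlap and did not pass either (edgeR adjusted p = 0.135). The part of these genes in the Klf6 and Cd69 levels was not tested.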

How the data were processed

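RNA from sorted OT1 cells (6-15 ng) was made into cDNA with SMART-seq V4, a kit that does not mark strand, in 12 amplification cycles and read as 50 base pairs from both ends, per the labels' protocols. The submitters' processing notes name STAR 2.6.0c, featureCounts 1.6.2 and GRCm38.p6. The deposited values are raw counts of read pairs per gene name over GENCODE M17 exons, without strand or multi-mapping options, per the file headers; they are not normalized.

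Libraries were grouped by title. Counts were tested with edgeR 4.0.16 in R 4.3.3: filterByExpr (minimum count 10, total 15), TMM scaling, and a robust quasi-likelihood fit of all 7 libraries without covariate. Log2 fold changes are the level with SMARTA minus that without; SEs are the fold change over the root of F. CPM of single genes are TMM-scaled; list sums, counting intervals and TPM use library totals. A count of 3, the level below which a gene without counts lies, was 0.0607 to 0.0788 CPM. Within groups libraries differed beyond sampling noise (a chi-square of 93.5 to 444 per degree of freedom). Each was counted as 1 replicate, though this spread cannot show that the libraries came from separate mice. Adrbk1, the older symbol of Grk2, was matched through RefSeq synonyms. Scripts were tested on simulated counts in which 200 of 15896 genes were made to differ. These were drawn from genes above 5 CPM on average, and the spread of each gene was the one edgeR estimated. Where the set difference was 2-fold, edgeR called 12% of these genes, DESeq2 34% and limma-voom 10%. At 4-fold the percentages were 82, 94 and 72. Calls made in error numbered 6 for edgeR, 79 for DESeq2 and 3 for limma-voom. A gene near 2-fold that edgeR did not call may thus still differ, and calls by DESeq2 alone are less secure. In the data 18.6% of genes had an unadjusted p under 0.05 in edgeR's test, a larger share than was set to differ. The simulated rates may therefore not hold there.

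Members, gene lists, tests and alternatives were chosen with earlier results of these data known. The text names all members, up to 3 called genes of each list (where none was called, the 2 of smallest p), the top marker of each marker list and, for 4 members, the 3 genes of most similar pattern. Klf10, Klf13, Foxo1, Ccr4, Cd40lg, S1pr3, Egr1, Egr2, Egr3, Fos, Junb, Ier2, Nr4a1, Nr4a3, Hspa1a, Hspa1b, Dnajb1, Xcr1, Zbtb46, Siglech, Fcer1g and the markers given as near 0 are named outside this rule, after their values were seen. The MEF2 core was also searched after values were seen. Alternatives were other scalings and filters, DESeq2 1.42.0, limma-voom (limma 3.58.1), no robust estimation, a replicate block and leaving out each library; leaving out 2 libraries together, and a block by the numbers on the deposited files, were chosen after seeing the data. Protein sequences were not used here.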

Additional observations from a re-analysis of the deposited data

How the results depend on the processing

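S1pr1 kept its direction in all 18 alternatives, with log2 fold changes from 2.25 to 2.66, and its call in 15. The exceptions were the fit without replicate 4 lacking SMARTA and both fits with a replicate block. The titles number the libraries with SMARTA 1 to 3 and the deposited files number them 2 to 4, and the sources do not say that either number pairs samples. Same-numbered libraries did not deviate together by the titles (correlations of −0.14, 0.03 and −0.27) or by the files (−0.09, −0.06 and −0.04). With the replicate block by title edgeR called 0 members and 0 of all genes, with 2 members and 1631 genes at an unadjusted p under 0.05 (S1pr1 at 2.53, edgeR adjusted p = 0.326). With the replicate block by file it called 0 and 0, with 2 and 1868 at an unadjusted p under 0.05 (S1pr1 at 2.29, edgeR adjusted p = 0.0949). In these fits 1 library lacking SMARTA has no partner, replicate 4 by title and replicate 1 by file, and adds nothing to the contrast. The block also leaves fewer degrees of freedom, so these fits have less power than the main fit. Over the 7 fits with 1 library left out, 0 to 2 members and 17 to 907 genes were called: 65, 398, 98 and 17 without replicates 1 to 4 lacking SMARTA and 907, 37 and 53 without replicates 1 to 3 with SMARTA. DESeq2 called 4 members (S1pr1, S1pr4, Cd69 and Ccr7) and 1741 genes. In the simulated counts it made 79 calls in error, against 6 by edgeR. The filter at a CPM of 5 in 3 libraries gave 842 genes and removed Klf2 and S1pr5. With replicate 1 with SMARTA and replicate 2 lacking it both left out, 1257 genes and 3 members were called (S1pr1, Cd69 at 1.73 and Klf6 at 1.17). With library totals alone, 163 of 561 called genes were higher, against 241 of 500, and the median of all genes moved to −0.16; no member changed direction. Klf3 was at −0.48 without replicate 1 lacking SMARTA and turned positive with limma-voom (0.20), the block by title (0.23), without replicate 2 lacking SMARTA (0.20) and without both libraries (0.25), and S1pr5 with limma-voom (0.48) and the block by title (1.44); the cause was not tested. Klf2 and S1pr5 had the fewest counts, 1 to 407 a library; for Klf2 the counting error, 9.84 to 30.8% of the value, was smaller than the spread between libraries.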

Other observations

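Candidates were the 7901 tested genes whose log2 CPM averaged 3 or more. Those whose level over the 7 libraries was most like that of S1pr1 were Osbpl5, Il16 and Tcp11l2 (Pearson r of log2 CPM 0.997, 0.994 and 0.994). Osbpl5, which encodes an oxysterol-binding protein family member, was at 66.4 to 97.9 CPM without and 206 to 263 CPM with SMARTA. Il16, which encodes a cytokine of lymphocytes, was at 192 to 238 and 382 to 474 CPM. After the group means were removed their correlations with S1pr1 were 0.974, 0.927 and 0.936, over the same 7 libraries. For Cd69 they were Kdm3a, a histone demethylase, Prnp, the prion protein gene, and Birc2, an inhibitor of apoptosis (0.991, 0.989 and 0.989). Birc2 was at 71.8 to 104 CPM without SMARTA and at 77.02, 176 and 259.7 CPM in replicates 1, 2 and 3 with SMARTA, the same order as Cd69.

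Ccr7 was most like Ndrg1, Cep44 and Nop14 (0.981, 0.98 and 0.977), of which Ndrg1, a gene induced by low oxygen, was at 64.8 to 122 CPM without and 37.6 to 73.0 CPM with SMARTA. Klf2 was most like R3hdm4, Cbx8 and Ighmbp2 (0.985, 0.981 and 0.977); each of these was highest in replicate 1 with SMARTA, as Klf2 was. The genes were picked as the most similar of many over few libraries that share their depth and makeup, so these values are a description, with no test.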
